A study of Mus musculus with 27 samples.

Results

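The data described here are the difference between 2 effects of the Gne genotype in the mouse retina: the effect in mice that lack complement C3 minus the effect in mice that have it. Every library of the series enters this difference, so it rests on 27 of 27 libraries, 1 per mouse, chosen by the genotypes and sequencing runs given in the sample titles. A positive value on the log2 scale means that the Gne effect was higher without C3, and a negative value that it was lower. The study made the Gne+/- mice to reduce sialylation, which was not measured in these data, and the difference addresses whether the retinal response to the Gne genotype depends on complement.

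Gne is the entry enzyme of the pathway that makes sialic acid, with an epimerase and a kinase activity. Sialic acid caps the sugar chains of cell surfaces, where it is read by Siglec receptors on microglia, which restrain immune attack on the body's own cells. C3 is the component on which the complement pathways converge. In the retina, microglia express C1q and complement receptors, and Mueller glia span the tissue and react to stress.

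The 4 groups were Gne+/- C3-/- (6 mice, of which 4 in sequencing run 1 and 2 in run 2), C3-/- with both Gne copies (7 mice, 4 and 3), Gne+/- with both C3 copies (7 mice, 5 and 2) and Wildtype with both copies of both genes (7 mice, 5 and 2). All were 9 months old, and total RNA of flat-mounted retinas was read from the 3' end of transcripts, with 100 ng going into each library. The labels describe gene knock-outs, of 1 Gne copy and of both C3 copies, and name no promoter or Cre that would restrict them to a cell type. They give neither sex, strain background nor litter.

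Between 13528183 and 34170608 reads were assigned to genes per library, and 16459 to 22938 genes had at least 1 read. Sequencing run 2 differed from run 1 in 10354 of 17409 tested genes (59.475%) at an adjusted p under 0.05 in edgeR's quasi-likelihood test, so run was a term in the model and values are given by run where it matters. Rod genes summed to between 79080 and 115200 CPM in run 1 (CPM, read counts scaled to a common library total). In run 2 they summed to between 40660 and 51680 CPM. Over both runs, 13 homeostatic microglia genes summed to between 24.4 and 69.1 CPM. Y-linked genes, which mark males, averaged over 10 CPM in run 1 in 2 of 4 Gne+/- C3-/-, 4 of 4 C3-/-, 2 of 5 Gne+/- and 0 of 5 Wildtype libraries. In run 2 they did so in 2 of 2, 0 of 3, 2 of 2 and 2 of 2 libraries of the same groups. Sex was thus spread unevenly over the groups, and for the pair without C3 in opposite order in the 2 runs. It is therefore partly confounded with the difference studied here. A term for Y-linked reads was the only alternative for sex. With it 0 genes were called, as without it, so this count cannot show what part sex had.

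Lens genes, listed to check for a neighbouring tissue (23 listed, 19 with reads), stood high in some libraries. Their summed level was 837 and 1787 CPM in Gne+/- mice 1 and 4, 132 to 225 CPM in the other 3 Gne+/- mice of run 1, and at most 175 CPM in every other library. The lens and astrocyte list medians are given with and without these 2 libraries, and Cd44 and Gfap with and without mouse 4. Signs of single genes that turned without the 2 libraries are listed further below. Other values are given only with both included.

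The genotypes were visible in the targeted genes. Gne had a lowest, median and highest level of 13.01, 36.1 and 44.0 CPM in Gne+/- C3-/- retinas, against 43.0, 110 and 136 CPM in C3-/- retinas. With C3 present it had 13.1, 48.2 and 56.7 CPM in Gne+/- retinas, against 47.0, 122 and 162 CPM in Wildtype retinas. Within each run the groups did not overlap in either pair. Gne fell by 1.62 on the log2 scale without C3 and by 1.54 with C3 (adjusted p = 4.46e-09 and 3.32e-09 in edgeR's quasi-likelihood test). The difference of the 2 effects was -0.079 (SE 0.18), with a 95% interval of -0.45 to 0.30, so any difference in the reduction of Gne itself between mice without and with C3 lay within that range at this confidence. C3 had a median of 0.757 CPM in Gne+/- C3-/- and 0.662 CPM in C3-/- retinas, and of 119 CPM in Gne+/- and 132 CPM in Wildtype retinas. At under 4 CPM in every C3-/- library its fitted Gne effect without C3 is not a measure of regulation.

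No gene passed the test for the difference of the 2 Gne effects. Of 17409 tested genes, 0 were called at an adjusted p under 0.05 in edgeR (0%), and DESeq2 and limma-voom also called 0, with 674 and 1294 genes at an unadjusted p under 0.05. Without the low-count filter edgeR called 30 genes, and in run 2 alone 4, all Y-linked. The smallest adjusted p was 0.9998. At an unadjusted p under 0.05 stood 554 genes (3.18%), of which 276 were positive (1.59%) and 278 negative (1.60%). The number was 893 without Gne+/- mouse 5. Each Gne effect on its own called 1 gene of 17409 (0.00574%), Gne itself. At an unadjusted p under 0.05 the Gne effect without C3 had 235 genes (1.35%), of which 124 were higher (0.712%) and 111 lower (0.638%) in Gne+/- C3-/- than in C3-/- retinas. The Gne effect with C3 had 1003 genes (5.76%), of which 468 were higher (2.69%) and 535 lower (3.07%) in Gne+/- than in Wildtype retinas. That these 2 numbers differ was not tested, and the arms hold 13 and 14 libraries.

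The absence of calls can be read against the size of difference the libraries resolve. For genes over 100 CPM the median SE of the difference was 0.19, and 2073 of 2220 genes had a 95% interval inside -1 to 1 on the log2 scale. For genes from 10 to 100 CPM the median SE was 0.30, and 4970 of 7140 genes had such an interval. From 1 to 10 CPM the median SE was 0.82 and 129 of 5317 genes had one, and under 1 CPM it was 1.76 and 7 of 2732 genes had one. A change of the Gne effect by more than a factor of 2 is thus outside the interval for most well expressed genes and is not excluded for most genes under 10 CPM.

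**Figure D1:**
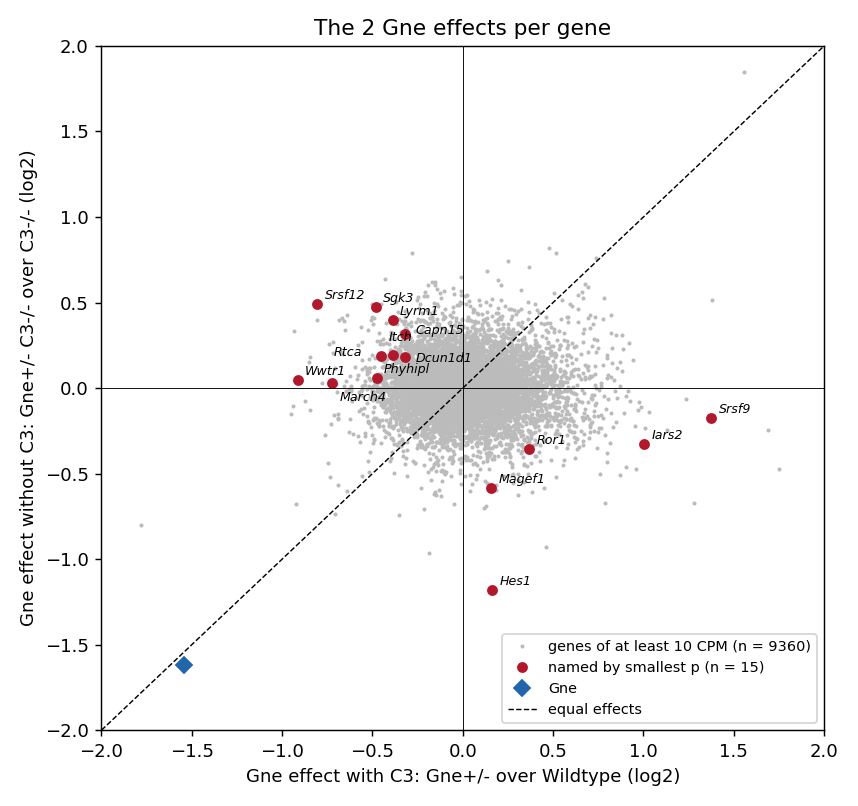
Gne effect without C3 (vertical axis, log2 of Gne+/- C3-/- over C3-/-) against Gne effect with C3 (horizontal axis, log2 of Gne+/- over Wildtype) for 9360 genes of at least 10 CPM on average, 10 of them outside the axes. Gne (blue) lies near the line of equal effects, and the 15 named genes of at least 10 CPM (red) lie away from it because they were picked for the difference.

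The genes with the smallest p are described next as a ranking, 15 in each direction, since none passed the adjusted test. All 30 had an adjusted p of 0.9998 in edgeR's quasi-likelihood test, and their unadjusted p ran between 0.000427 and 0.00846. In 29 of 30 the 2 Gne effects had opposite signs, which selection for a large difference favours, against 49.48% of all tested genes. In 22 of 30 (73.33%) the effect with C3 was the larger of the 2 in size, against 59.31% of all tested genes. The share was 66.97% among the 554 genes at an unadjusted p under 0.05, which were also picked by the difference. The difference had the same sign in both sequencing runs in 30 of 30, but these runs also gave the p by which the genes were picked. A further 6 positive and 4 negative genes with provisional symbols ranked among them and are not named.

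Among the 15 genes with a positive difference, Srsf12, an SR-type splicing regulator on chromosome 4 (33208991 to 33233340, GRCm38), had the smallest p. Its lowest, median and highest levels were 9.36, 12.7 and 14.3 CPM in Gne+/- C3-/- retinas, against 6.68, 8.26 and 11.9 CPM in C3-/- retinas. With C3 they were 4.78, 8.04 and 10.3 CPM in Gne+/- retinas, against 10.2, 12.3 and 18.1 CPM in Wildtype retinas. Gne+/- retinas with C3 thus lay almost wholly below Wildtype, with 1 Gne+/- library above the lowest 2 Wildtype libraries, while without C3 the Gne+/- C3-/- median lay above that of C3-/- and the groups overlapped. The Gne effect was 0.49 without C3 and -0.81 with C3, a difference of 1.296 (SE 0.33, unadjusted p = 0.000427). It was 1.33 in run 1 and 1.17 in run 2, and between 1.203 and 1.42 when any 1 library was left out.

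Wwtr1, which encodes the Hippo pathway coactivator TAZ, had higher levels in run 2 than in run 1 in all 4 groups. In run 1 it had 10.1, 11.8, 15.9 and 13.3 CPM in Gne+/- C3-/- retinas, against 12.9, 13.1, 10.4 and 5.48 CPM in C3-/- retinas. In Gne+/- retinas of that run it had 10.2, 10.5, 13.8, 6.67 and 8.07 CPM, against 20.7, 13.5, 21.3, 15.5 and 25.4 CPM in Wildtype retinas. In run 2 the levels were 24.3 and 25.8 CPM in Gne+/- C3-/-, 31.0, 31.2 and 28.5 CPM in C3-/-, 22.6 and 17.9 CPM in Gne+/- and 39.7 and 29.3 CPM in Wildtype retinas. In run 2 both Gne groups lay below their Gne+/+ counterparts, and more so with C3 than without. The Gne effect was 0.046 without C3 and -0.91 with C3, a difference of 0.96 (SE 0.30, unadjusted p = 0.00345).

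Itch, a HECT-type ubiquitin ligase that limits immune activation, had in run 1 levels of 128, 90.3, 103 and 101.3 CPM in Gne+/- C3-/- retinas, against 93.6, 78.1, 83.4 and 90.4 CPM in C3-/- retinas. In Gne+/- retinas of run 1 it had 70.0, 53.0, 97.7, 67.3 and 81.9 CPM, against 124, 93.6, 98.04, 106 and 111 CPM in Wildtype retinas. The pairs overlapped at their edges only, in opposite order. The difference was 0.58 (SE 0.18, unadjusted p = 0.00299), of which run 1 gave 0.80 and run 2 gave 0.070. Dcun1d1, which promotes cullin neddylation, had a difference of 0.50 (SE 0.17), and March4, a membrane-bound ubiquitin ligase, of 0.76 (SE 0.27).

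The other positive genes of at least 10 CPM were Sgk3, a kinase of the SGK family (difference 0.96, SE 0.30), Rtca, an RNA phosphate cyclase (0.64, SE 0.20), Phyhipl (0.53, SE 0.18), Lyrm1 (0.79, SE 0.27) and the calpain Capn15 (0.64, SE 0.23). Sgk3 had medians of 17.96 CPM in Gne+/- C3-/- and 11.8 CPM in C3-/- retinas, and of 11.3 CPM in Gne+/- and 17.5 CPM in Wildtype retinas. Pla2g3, a secreted phospholipase A2, had medians of 5.97 CPM in Gne+/- C3-/- and 1.46 CPM in C3-/- retinas, and of 4.45 CPM in Gne+/- and 8.30 CPM in Wildtype retinas. Its difference was 2.39 (SE 0.62, unadjusted p = 0.000518), though other annotated genes cover 44.96% of its span and reads there are not counted. The same limit holds for Lyrm1 (56.84% of the span) and Eri2 (74.42%). Among genes named further below it holds for Cmah (53.68%) and Cx3cr1 (57.36%). Zswim1, Eri2 and Prdm14 averaged below 3 CPM in every group, with Prdm14 under 0.1 CPM in Gne+/- retinas, so their fitted differences of 4.84 to 6.03 rest on few reads.

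Among the 15 genes with a negative difference, Hes1 is the best known in the retina, a transcriptional repressor downstream of Notch that Mueller glia express. In run 1 Hes1 had 9.46, 12.5, 7.69 and 3.95 CPM in Gne+/- C3-/- retinas, against 20.3, 14.1, 35.2 and 10.1 CPM in C3-/- retinas. In run 2 it had 28.2 and 21.6 CPM in Gne+/- C3-/-, against 32.8, 56.9 and 63.3 CPM in C3-/- retinas. The Gne+/- C3-/- libraries were the lower ones in both runs, with an overlap of 1 library each way in run 1 and none in run 2. With C3, Hes1 had a lowest, median and highest level of 11.3, 27.5 and 36.3 CPM in Gne+/- retinas, against 8.40, 24.5 and 33.2 CPM in Wildtype retinas, and these ranges overlapped almost fully. The Gne effect was -1.18 without C3 and 0.16 with C3, a difference of -1.35 (SE 0.42, unadjusted p = 0.0029), and between -1.49 and -1.17 when any 1 library was left out.

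Ror1, a receptor tyrosine kinase-like receptor for Wnt ligands, had the smallest SE of the negative genes. Its lowest, median and highest levels were 28.5, 32.3 and 39.6 CPM in Gne+/- C3-/- retinas, against 36.4, 43.0 and 51.6 CPM in C3-/- retinas. With C3 they were 32.9, 38.01 and 51.2 CPM in Gne+/- retinas, against 19.4, 33.5 and 36.8 CPM in Wildtype retinas. Gne+/- libraries thus tended to be the lower ones without C3 and the higher ones with C3. The difference was -0.73 (SE 0.20, unadjusted p = 0.00109), with -0.64 in run 1 and -0.98 in run 2. Magef1, of the MAGE family, had a difference of -0.74 (SE 0.21), mostly from a lower level without C3, with medians of 21.4 CPM in Gne+/- C3-/- and 33.7 CPM in C3-/- retinas.

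Hif3a, a member of the hypoxia-inducible factor family, had a lowest, median and highest level of 2.96, 5.47 and 8.46 CPM in Gne+/- C3-/- retinas, against 4.21, 9.16 and 14.7 CPM in C3-/- retinas. With C3 the levels were 2.90, 9.03 and 12.1 CPM in Gne+/- retinas, against 2.60, 2.94 and 6.76 CPM in Wildtype retinas. Over both runs the medians of C3-/- and Gne+/- retinas were thus alike and above those of the other 2 groups, but not within either run. In run 1 the medians were 4.67 CPM in Gne+/- C3-/-, 10.8 CPM in C3-/-, 5.07 CPM in Gne+/- and 2.85 CPM in Wildtype retinas. In run 2 they were 7.95, 7.81, 11.2 and 6.47 CPM in the same order. The difference was -1.69 (SE 0.49, unadjusted p = 0.00147). Zfp442, a zinc finger gene, had the smallest p of the negative genes, with medians of 1.22 CPM in Gne+/- C3-/- and 4.28 CPM in C3-/- retinas, and of 3.67 CPM in Gne+/- and 0.726 CPM in Wildtype retinas. Its difference was -2.68 (SE 0.74).

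Iars2, which encodes mitochondrial isoleucyl-tRNA synthetase, the mitochondrial sirtuin Sirt4, the splicing factor Srsf9 and Emd, which encodes the nuclear envelope protein emerin, share a strong dependence on the run. Iars2 had 3.50 to 7.62 CPM in Gne+/- C3-/-, 4.50 to 13.6 CPM in C3-/-, 7.38 to 16.3 CPM in Gne+/- and 2.78 to 8.38 CPM in Wildtype retinas of run 1. In run 2 its level was between 45.7 and 77.5 CPM in all 4 groups. Its difference was -1.92 in run 1 and -0.27 in run 2. Srsf9 had -1.85 in run 1 and -0.74 in run 2, Sirt4 had -4.44 and -0.58, and Emd had -2.68 and -0.85. In each of the 4 the difference was larger in run 1, where levels were low.

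The remaining negative genes were Cited4, a CBP/p300-binding coregulator, with a difference of -2.11 (SE 0.68), and genes below 1 CPM on average, among them Skor2, Cenpu, Mrpl24 and Lgals2. Lgals2 was at 0 CPM in every Gne+/- C3-/- library and at 0.575 CPM on average in C3-/- retinas, so it has no meaningful fold. Skor2, Cenpu and Mrpl24 had fitted differences of -6.33, -6.20 and -5.51, which rest on few reads.

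**Figure D2:**
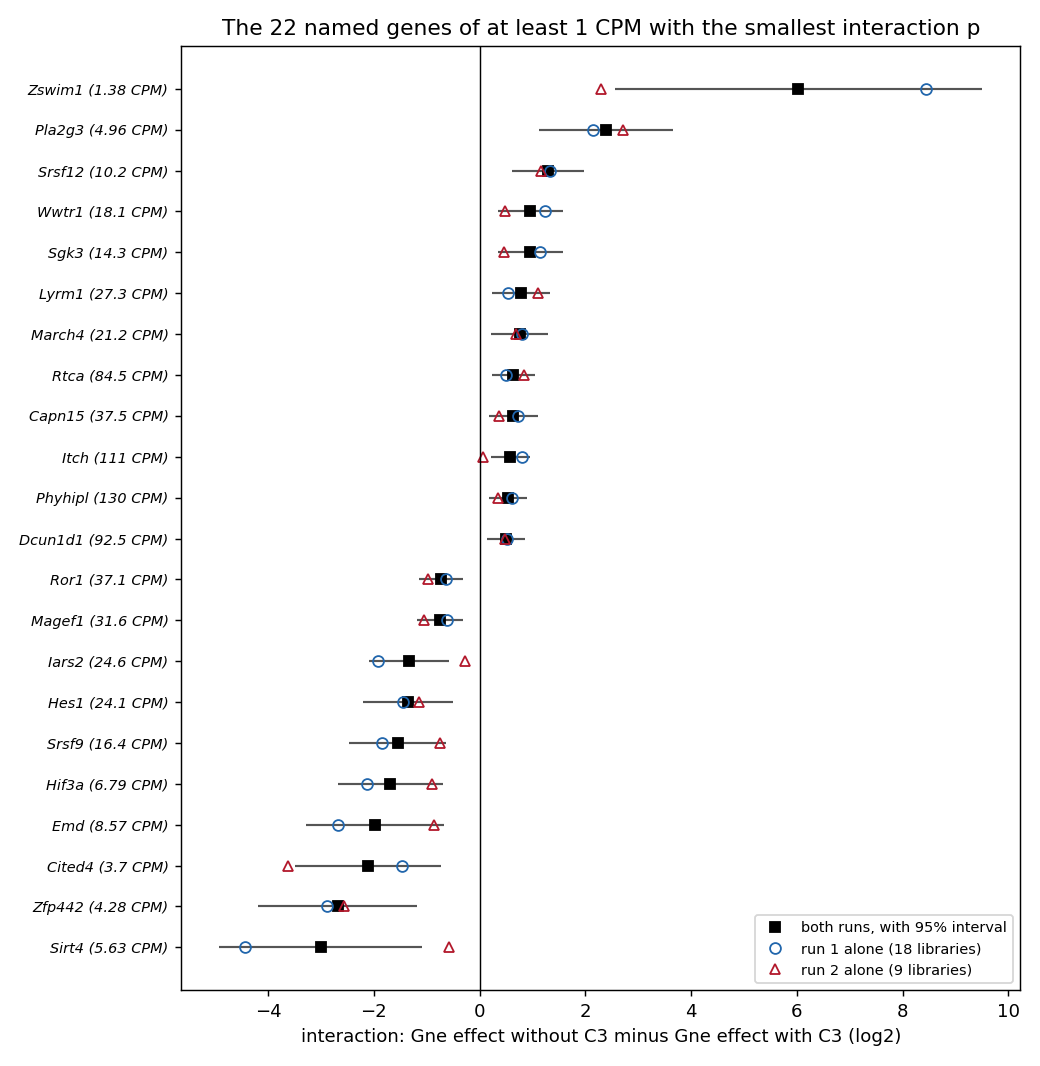
Difference of the 2 Gne effects (log2, horizontal axis) for the 22 named genes of at least 1 CPM, with mean CPM in brackets. Squares and bars give the estimate over both runs with its 95% interval, circles run 1 and triangles run 2, and Zswim1, at a mean of 1.38 CPM, has the widest bar.

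**Figure D3:**
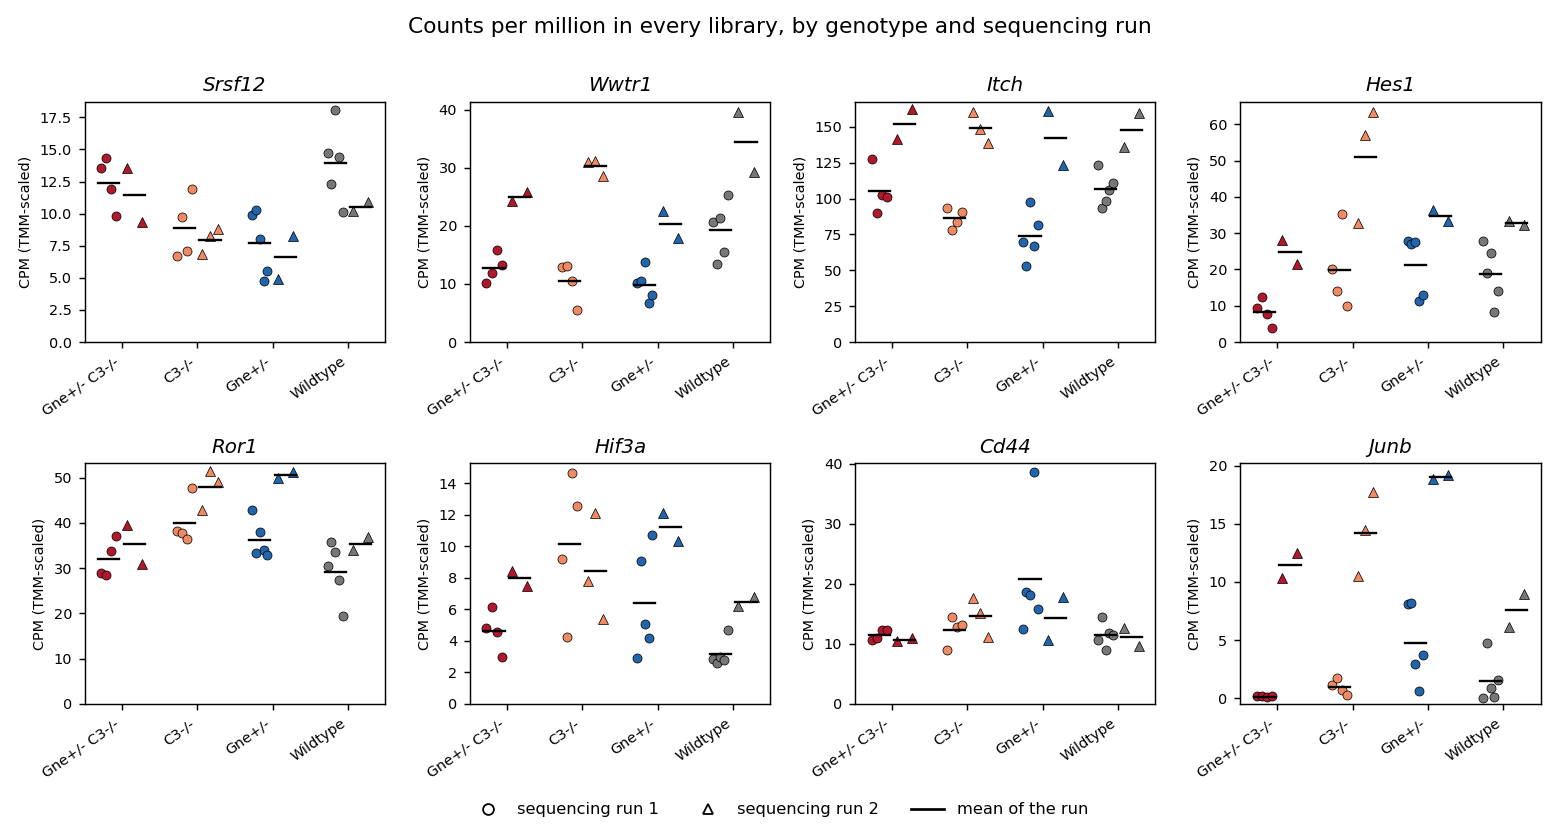
CPM in every library for 8 genes, with the genotypes along the horizontal axis, circles for run 1, triangles for run 2 and lines for the mean of a run. Hes1 shows its lowest values in the Gne+/- C3-/- libraries, and Cd44 its highest, 38.6 CPM, in Gne+/- mouse 4.

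Of 45 gene lists, which cover the cell classes of the retina, immune and stress responses and sialic acid, 15 are described, and none had a member that passed the adjusted test. For comparison, 8566 of all 17409 tested genes had a positive and 8843 a negative difference, with a median of -0.0071. In a bulk sample, fewer cells of a type and less RNA per cell cannot be told apart.

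Immediate early genes, transcription factors and regulators induced within minutes of a stimulus, mostly had a negative difference. Of 28 listed, 27 were tested, and 24 had a negative and 3 a positive difference, with a median of -0.51. The median Gne effect of the list was -0.37 without C3 and 0.19 with C3. At an unadjusted p under 0.05 stood 1 member (background 1.60%), and the list was written with an earlier result on such genes in these libraries known, so its direction is not independent evidence. The list median was -0.52 in run 1 and -0.18 in run 2, and -0.28 without C3-/- mouse 5.

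Junb, an AP-1 subunit, was that member. In run 1 it had 0.182, 0.138, 0.058 and 0.141 CPM in Gne+/- C3-/- retinas, against 1.10, 1.68, 0.715 and 0.225 CPM in C3-/- retinas. In Gne+/- retinas of run 1 it had 8.09, 8.202, 2.97, 0.611 and 3.71 CPM, against 0, 4.78, 0.849, 0.051 and 1.59 CPM in Wildtype retinas. Every Gne+/- C3-/- library of run 1 lay below every C3-/- library, narrowly at 0.182 against 0.225 CPM, whereas the pair with C3 overlapped. At 0.182 CPM or less, the Gne+/- C3-/- levels of run 1 and the difference fitted to that run rest on few reads. In run 2 Junb had 10.4 and 12.5 CPM in Gne+/- C3-/-, against 10.5, 14.5 and 17.8 CPM in C3-/- retinas, and 18.9 and 19.3 CPM in Gne+/-, against 6.10 and 9.00 CPM in Wildtype retinas. The pair without C3 overlapped in run 2, while with C3 both Gne+/- libraries were above both Wildtype libraries. The difference was -2.84 (SE 1.09, unadjusted p = 0.0142, adjusted p = 0.9998 in edgeR's quasi-likelihood test), and -4.47 in run 1 against -1.68 in run 2.

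Further members had smaller differences with intervals that include 0. Klf2, a Krueppel-like factor of endothelium and immune cells, had -0.97 (SE 0.55), Jun, the other main AP-1 subunit, -0.72 (SE 0.43) and Ier2 -0.61 (SE 0.41). Egr1 had -1.18 (SE 0.95) and Fos -0.63 (SE 0.60), while Egr4 (0.73, SE 1.39), Fosl2 (0.35, SE 0.76) and Klf6 (0.16, SE 0.42) were the positive ones. Summed over the list, run 1 levels were 974.5 to 1197 CPM in Gne+/- C3-/-, 1165 to 1540 CPM in C3-/-, 1010 to 1189 CPM in Gne+/- and 871 to 1286 CPM in Wildtype retinas. In run 2 they were 650 and 676 CPM in Gne+/- C3-/-, 647 to 728 CPM in C3-/-, 798 and 815 CPM in Gne+/- and 620 and 730 CPM in Wildtype retinas. The highest sum of run 1 belonged to a C3-/- library and that of run 2 to a Gne+/- library.

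The promoters of 3 of the members with the smallest p are shown because TGACG, the core of the cAMP response element, is a known feature of many immediate early promoters. RefSeq start regions (GRCm38.p6, 250 bases before to 50 after the start, read 5' to 3' on the gene's strand) are at chr8:84978699-84978998 on the minus strand for Junb, chr8:72318812-72319111 on the plus strand for Klf2 and chr4:95052173-95052472 on the minus strand for Jun. Capitals mark TGACG or its reverse complement CGTCA.
Junb: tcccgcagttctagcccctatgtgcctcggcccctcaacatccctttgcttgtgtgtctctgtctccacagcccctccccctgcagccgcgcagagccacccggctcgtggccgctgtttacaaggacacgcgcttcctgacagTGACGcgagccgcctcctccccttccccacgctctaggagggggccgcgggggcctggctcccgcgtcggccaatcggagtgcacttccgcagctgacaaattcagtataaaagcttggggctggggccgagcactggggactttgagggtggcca
Klf2: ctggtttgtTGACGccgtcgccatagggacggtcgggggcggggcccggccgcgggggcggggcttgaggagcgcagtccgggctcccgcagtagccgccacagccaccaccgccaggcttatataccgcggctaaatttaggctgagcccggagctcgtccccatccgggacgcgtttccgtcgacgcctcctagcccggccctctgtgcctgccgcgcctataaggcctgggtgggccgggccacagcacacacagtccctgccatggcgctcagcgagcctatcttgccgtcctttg
Jun: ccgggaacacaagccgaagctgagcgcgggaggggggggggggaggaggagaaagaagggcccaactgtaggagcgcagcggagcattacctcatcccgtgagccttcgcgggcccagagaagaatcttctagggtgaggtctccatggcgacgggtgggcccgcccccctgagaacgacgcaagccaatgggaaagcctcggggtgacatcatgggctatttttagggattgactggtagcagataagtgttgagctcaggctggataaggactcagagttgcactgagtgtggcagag
Junb and Klf2 each hold the motif once, and the Jun window does not hold these letters. Of the 28 immediate early genes, 24 matched a RefSeq window, and 16 of these held TGACG on either strand in at least 1 window, against 23% of 27025 genes. TATAAA occurred in 4 of 24, against 15.7% of genes. The CArG box, CC and GG around a stretch of A or T, occurred in 2 of 24, against 1.81% of genes. A match describes the letters and is not evidence that a factor binds there.

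**Figure D4:**
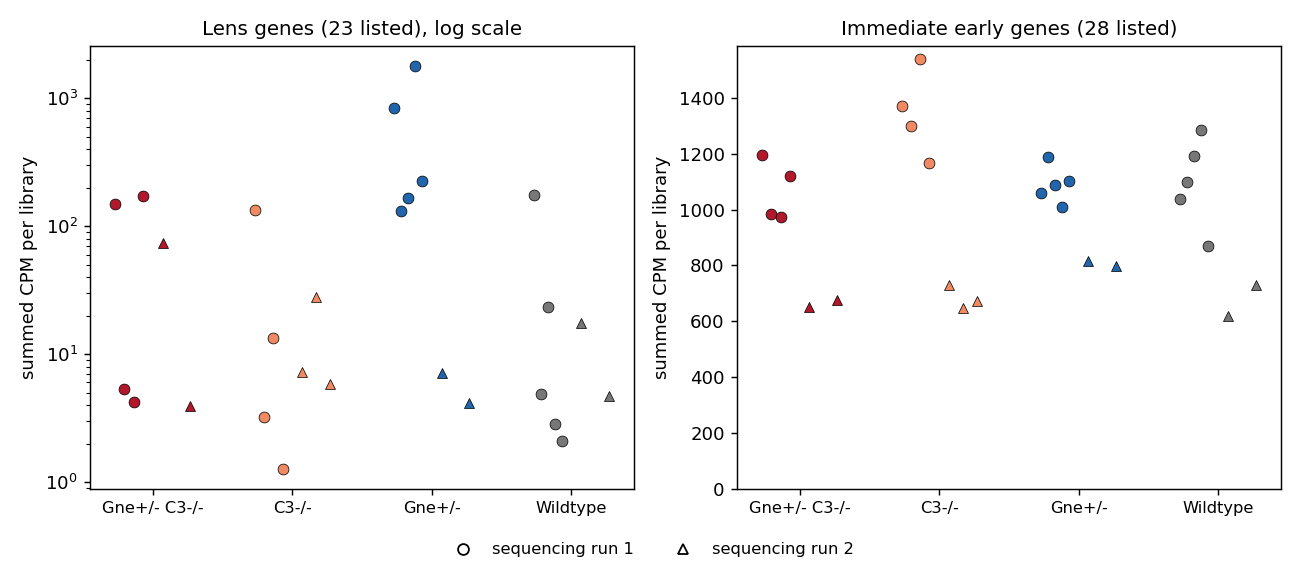
Summed CPM per library of the 23 lens genes (left, log scale) and the 28 immediate early genes (right), by genotype, with circles for run 1 and triangles for run 2. The highest lens sums, 837 and 1787 CPM, belong to Gne+/- mice 1 and 4, and the immediate early sums of run 2 lie below those of run 1.

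Genes of reactive gliosis also tended to a negative difference. Of 17 listed, 13 were tested, with 11 negative and 2 positive and a median of -0.27, which was 0.16 in run 1 and -0.996 in run 2. Cd44, a hyaluronan receptor of reactive Mueller glia, was the only member at an unadjusted p under 0.05 (background 1.60%). It had a lowest, median and highest level of 10.4, 10.9 and 12.3 CPM in Gne+/- C3-/- retinas, against 8.88, 13.1 and 17.6 CPM in C3-/- retinas. With C3 it had 10.6, 17.8 and 38.6 CPM in Gne+/- retinas, against 8.89, 11.5 and 14.5 CPM in Wildtype retinas. The Gne+/- group stood highest, with 5 of 7 libraries above every Wildtype library. The difference was -0.98 (SE 0.33, unadjusted p = 0.0056), and -0.70 without Gne+/- mouse 4, which has the highest lens sum.

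Gfap, the intermediate filament of astrocytes and reactive Mueller glia, had medians of 7.47 CPM in Gne+/- C3-/- and 5.37 CPM in C3-/- retinas, and of 7.53 CPM in Gne+/- and 4.23 CPM in Wildtype retinas. Its difference was -1.07 (SE 0.56), and -0.73 without Gne+/- mouse 4, in which Gfap was at 28.3 CPM. Vim, the other glial filament gene, had -0.27 (SE 0.31). Of 8 astrocyte genes, 6 were negative with a median of -0.74, which was -0.24 without Gne+/- mouse 4, -0.013 without Gne+/- mice 1 and 4, -0.074 in run 1 alone and -0.073 in run 2 alone. The abundant astrocyte genes Slc1a2 (0.15, SE 0.19) and Aldoc (0.083, SE 0.22) were near 0.

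Genes of Mueller glia as a group showed no common direction. Of 12 tested, 7 were positive and 5 negative, with a median of 0.056. Slc38a3, a glutamine transporter, had medians of 144 CPM in Gne+/- C3-/- and 170 CPM in C3-/- retinas, and of 136 CPM in Gne+/- and 128 CPM in Wildtype retinas. Its difference was -0.68 (SE 0.26, unadjusted p = 0.0148), but -1.03 in run 1 and 0.030 in run 2. Abca8a, a lipid transporter, had medians of 246 CPM in Gne+/- C3-/- and 197 CPM in C3-/- retinas, and of 221 CPM in Gne+/- and 317 CPM in Wildtype retinas. Its difference was 0.51 (SE 0.22, unadjusted p = 0.0259), with 0.47 in run 1 and 0.63 in run 2. Dkk3 (0.45, SE 0.26) and Sox9 (-0.58, SE 0.36) pointed in opposite directions.

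Lens genes had the list median farthest from 0. Of 11 tested, 10 were negative, with a median of -2.35. The 1 positive member, Crygb, was the only one at an unadjusted p under 0.05 (background 1.59%). Its difference was 5.25 (SE 2.46, unadjusted p = 0.0427 in edgeR's quasi-likelihood test). Crygb averaged 0.872 CPM over all libraries and 0 CPM in C3-/- retinas, so its difference rests on few reads. The median Gne effect of the lens list was 1.28 without C3 and 3.39 with C3, so it was positive in both. The list median was -3.04 in run 1 and 4.25 in run 2, -1.67 without Gne+/- mouse 4 and -0.71 without Gne+/- mice 1 and 4. Crybb1, a beta crystallin, had 2.24, 0, 0.641 and 3.81 CPM in run 1 in Gne+/- C3-/- retinas, against 1.77, 0.23, 0.429 and 0 CPM in C3-/- retinas. With C3 it had 8.09, 0.978, 2.56, 20.2 and 4.52 CPM in Gne+/- retinas, against 0.559, 0, 0.17, 0.563 and 0 CPM in Wildtype retinas. Gne+/- mice 1 and 4 held the highest values, but every Gne+/- library listed lay above every Wildtype library listed. Summed lens genes in run 1 ranged from 132 to 1787 CPM (median 225 CPM) in Gne+/- retinas. In Wildtype retinas of that run they ranged from 2.10 to 175 CPM (median 4.84 CPM). The part of lens RNA in the other results was not tested beyond leaving out Gne+/- mice 1 and 4.

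Mitochondrially encoded genes, which hold subunits of the respiratory chain, tended the other way. Of 13 listed, 8 were tested, and 7 had a positive and 1 a negative difference, with a median of 0.27 that was 0.15 in run 1 and 0.61 in run 2. The median Gne effect was 0.022 without C3 and -0.25 with C3. The complex I gene mt-Nd4 had medians of 15120 CPM in Gne+/- C3-/- and 12640 CPM in C3-/- retinas, and of 9745 CPM in Gne+/- and 14420 CPM in Wildtype retinas. Its difference was 0.43 (SE 0.25), that of mt-Nd1 0.30 (SE 0.19) and that of mt-Nd2 -0.12 (SE 0.21). At an unadjusted p under 0.05 stood 0 of 8, against 3.18% of all tested genes.

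Genes of sialic acid synthesis were split in direction. Of 7 tested, Gne among them, 3 were positive and 4 negative, with a median of -0.013, and of the 6 other than Gne 3 were positive and 3 negative, with a median of 0.098. Cmas, which activates sialic acid for transfer, had a difference of 0.21 (SE 0.21, 95% interval -0.23 to 0.64), and Slc35a1, which carries the activated sugar into the Golgi, of -0.013 (SE 0.25, 95% interval -0.53 to 0.50). Cmah, which hydroxylates sialic acid, had 0.58 (SE 0.37) and the lysosomal exporter Slc17a5 -0.47 (SE 0.40). Siglec receptor genes had few reads: 5 of 11 were tested, 3 negative and 2 positive, with a median of -0.65 that was 0.024 without C3-/- mouse 6. Siglece, an inhibitory Siglec of microglia, had mean levels of 0.373 CPM in Gne+/- C3-/- and 1.42 CPM in C3-/- retinas, and of 1.22 CPM in Gne+/- and 0.711 CPM in Wildtype retinas. Its difference of -1.83 had an SE of 1.64.

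Complement genes other than C3 were split in direction. Of 10 tested components, 5 were positive and 5 negative, with a median of 0.18, and of 13 receptors and regulators 7 were positive and 6 negative, with a median of 0.044. The 3 chains of C1q, the recognition molecule of the classical pathway, had differences of -0.32 (C1qa, SE 0.51), -0.64 (C1qb, SE 1.05) and 0.62 (C1qc, SE 0.59). C4b had 0.92 (SE 0.92) and the anaphylatoxin receptor C3ar1 -0.71 (SE 1.01). Cd59a, which blocks the membrane attack complex, was well expressed and had -0.31 (SE 0.30). Most of these genes were under 10 CPM, where a factor of 2 lies within the interval.

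Microglia genes showed no common difference either. Of 10 homeostatic genes, 7 were positive and 3 negative, with a median of 0.049, and of 19 genes of activated microglia and lysosomes, 9 were positive and 10 negative, with a median of -0.12. Csf1r had 0.16 (SE 0.51), Cx3cr1 0.052 (SE 0.43) and Tmem119 0.045 (SE 0.92). Axl, a receptor for phagocytosis, was the only one at an unadjusted p under 0.05 in either list (background 1.59%). It had medians of 9.60 CPM in Gne+/- C3-/- and 7.28 CPM in C3-/- retinas, and of 5.28 CPM in Gne+/- and 8.72 CPM in Wildtype retinas, with overlap in both pairs. Its difference was 1.05 (SE 0.49, unadjusted p = 0.0417), with 1.32 in run 1 and 0.36 in run 2. Of 13 antigen presentation genes, 8 were negative and 5 positive, with a median of -0.32 that was -0.062 without C3-/- mouse 6. H2-K1, a classical class I gene, had -0.40 (SE 0.33) and H2-D1 -0.20 (SE 0.33).

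Bipolar cell lists had medians near that of all genes, with members on both sides. Rod and ON bipolar genes were 7 positive and 7 negative of 14 tested, with a median of 0.010, and OFF and cone bipolar genes 9 positive and 4 negative of 13, with a median of 0.081. Prkca, the marker of rod bipolar cells, had a difference of -0.010 (SE 0.18), and Trpm1, the transduction channel of ON bipolar cells, 0.24 (SE 0.21). Grik1, the kainate receptor through which OFF bipolar cells sense glutamate, had 0.29 (SE 0.19) and Scgn 0.19 (SE 0.19). Syt2, a synaptotagmin, was the only member at an unadjusted p under 0.05 (background 1.59%). Its difference was 0.53 (SE 0.25, unadjusted p = 0.0387 in edgeR's quasi-likelihood test). Its medians were 32.2 CPM in Gne+/- C3-/- and 29.6 CPM in C3-/- retinas, and 27.3 CPM in Gne+/- and 37.0 CPM in Wildtype retinas. Lrit3, a synaptic protein needed for ON signalling, had -0.93 (SE 0.46).

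**Figure D5:**
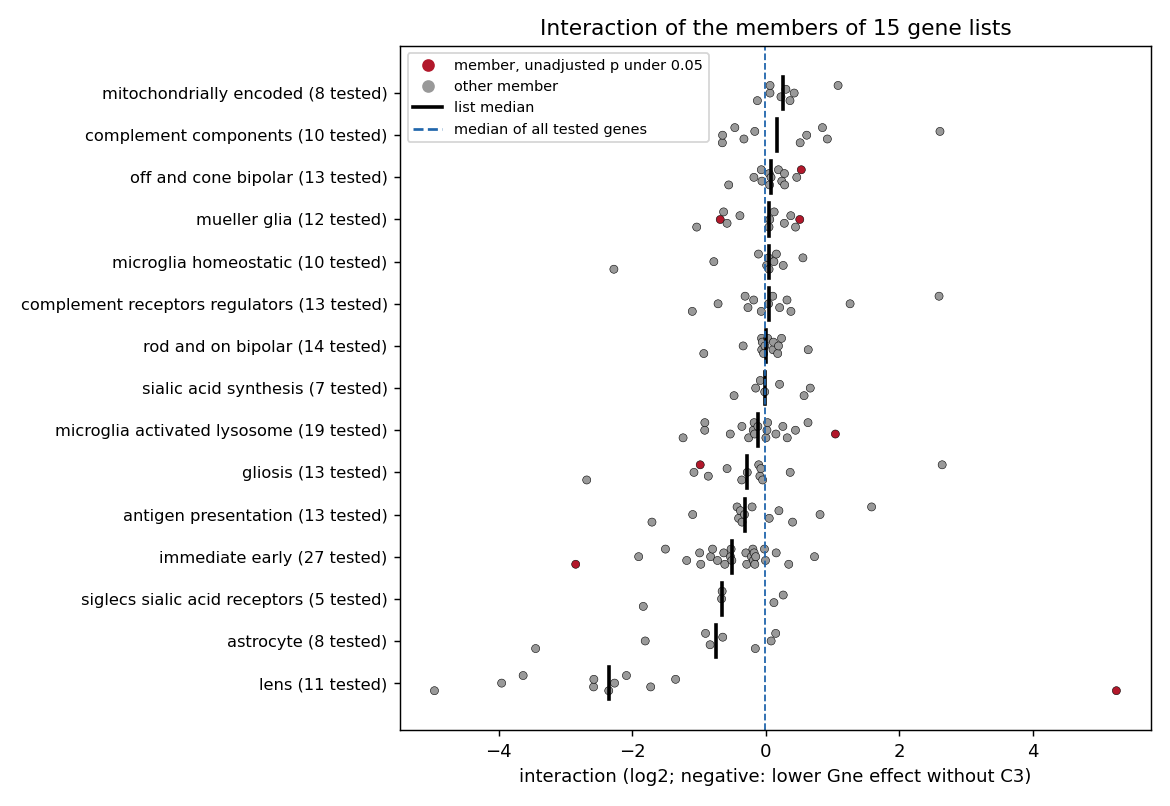
Difference of the 2 Gne effects (log2, horizontal axis) for each tested member of 15 gene lists, with the list median as a bar and the median of all tested genes as a dashed line. Red points have an unadjusted p under 0.05, and the medians of bipolar, Mueller glia and microglia lists lie close to the dashed line while those of lens and immediate early genes lie left of it.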

How the data were processed

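For each of the 27 retinal libraries the authors deposited a whole-number count of reads per gene, not normalized. The submitters' processing notes name STAR 2.7.3a, featureCounts, Subread 2.0.0 and the build GRCm38 (mm10). The file headers give featureCounts 2.0.3, Ensembl release 101, and unstranded counting over exon and gene features, in which reads shared by overlapping genes are left out. A 0 for such a gene is no measure of its expression, and antisense partners cannot be told apart.

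Groups came from the sample titles. The genes and lists were chosen with earlier results of these data known. Counts were analysed with edgeR 4.0.16 in R 4.3.3: filterByExpr (minimum count 10), which left 17409 of 55487 genes, TMM factors, the 4 groups plus sequencing run (22 residual degrees of freedom), robust quasi-likelihood tests, and Benjamini-Hochberg adjustment over all tested genes (threshold 0.05). The common biological coefficient of variation was 55.1%. SEs were derived from the F statistic. CPM use TMM-scaled library sizes. The procedure was tested on simulated data. Library pairs of the same group differed beyond sampling noise, with a chi-square per degree of freedom of at least 8.08 over 78 pairs.

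Named were Gne and C3, the 15 genes of smallest p in each direction with official symbols, up to 4 members of smallest p in each list described, and fixed complement, microglia, glia and bipolar genes. Lists described were the 6 with medians farthest from that of all genes, among lists with at least 5 tested members, and 9 set by subject. Other members, such as Egr1, Fos, Vim and Crybb1, were chosen after their values were seen. Alternatives were DESeq2 1.42.0, limma-voom (limma 3.58.1), RLE factors, no or a stricter low-count filter, no robust estimation, other run terms, each run alone, a replicate block, a Y-linked covariate, and leaving out each library. Some genes that the naming rule takes are not reported here.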

Additional observations from a re-analysis of the deposited data

Results flagged for a closer look

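For displayed genes, 72 groups of 6 or 7 libraries were examined on what remained of log2 CPM after fitting group and run. Of these, 5 held 1 library far from the rest, and chance gives about 1 in 20. Group medians given here are over both runs. In C3-/- mouse 6, 3 genes were low: Pla2g3 at 0.450 CPM against a group median of 1.46 CPM, Wwtr1 at 5.48 CPM against 13.1 CPM and Axl at 0.600 CPM against 7.28 CPM. This mouse was in run 1, where the C3-/- median was 4.03 CPM for Pla2g3 and 11.6 CPM for Wwtr1. Cd44 was high in Gne+/- mouse 4, at 38.6 CPM against a group median of 17.8 CPM. Gfap was low in Gne+/- C3-/- mouse 8, at 0.975 CPM against a group median of 7.47 CPM. Without C3-/- mouse 6 the difference of Wwtr1 was 0.86, and without Gne+/- mouse 4 that of Cd44 was -0.70.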

How the results depend on the processing

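In edgeR 0 genes were called for the interaction, as in each run of the test that left out 1 library (lowest 0, highest 0), but without the low-count filter 30 were called, and in run 2 alone 4, all Y-linked. The Gne effect without C3 called 1 gene, against 9 without the filter, 5 in run 2 alone and 0 with no run term, and 1 to 1 when a library was left out. The Gne effect with C3 called 1 gene, against 8 with DESeq2, 2 with limma-voom, 72 without the filter and 0 with no run term, and 1 to 2 when a library was left out. The 554 genes at an unadjusted p under 0.05 became 1294 with limma-voom, 2126 without the filter, 216 with no run term and 968 in run 2 alone, and 454 to 893 when a library was left out. The 7179 genes with an interval inside -1 to 1 became 3792 with no run term, and 6833 to 7340 when a library was left out. The replicate block kept 0 interaction calls and gave 448 genes at an unadjusted p under 0.05 and 7251 narrow intervals. The labels do not say whether equal mouse numbers pair mice of different groups. Of 31 same-numbered pairs, 4 correlated above 0.1 after fitting group and run (lowest -0.16, median -0.042, highest 0.26). Pairs with different numbers were not compared, so pairing was not excluded.

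Signs of single genes turned as follows, all in genes that were not called; the cause was not tested. In run 2 alone the values were 0.065 for Gne, 4.25 for Crygc, 0.83 for Pax2, 1.33 for Siglece, -0.59 for Siglech, -6.15 for H2-Aa, 0.031 for Slc17a5, -0.30 for Renbp and -0.47 for C1qc. They were also -2.46 for C4b, -4.98 for C5ar1, 0.40 for Cd59a, -0.17 for Csf1r, -0.38 for Lpl, 0.030 for Slc38a3 and 0.072 for Sox9. The rest in run 2 alone were 0.70 for C3ar1, 0.20 for C1qa, 0.71 for C1qb, 0.97 for Cd68 and -0.91 for Cx3cr1. In run 1 alone they were 0.79 for C3, -0.46 for Tmem119 and -0.53 for Aif1. With limma-voom they were -1.03 for Crygb, 0.96 for Cd33, -0.62 for C4b, -1.05 for C5ar1, 0.10 for C1qa, 1.08 for Trem2, -0.075 for Tmem119 and -0.018 for Aif1. With the replicate block they were 0.16 for C3, 1.43 for Cd33, 0.021 for Cd59a, 0.27 for Fcrls, -0.035 for Csf1r and -0.11 for Cx3cr1. With no run term they were 0.013 for Gne, -1.52 for C5ar1, -0.034 for Tmem119 and -0.043 for Aif1. Without the 2 libraries of highest lens sum, an alternative chosen after seeing the data, they were -0.081 for Cx3cr1, -0.052 for Tmem119 and -0.012 for Aif1. Prkca, near 0 throughout, had 0.00451 with DESeq2, 0.00453 with RLE factors, 0.00045 without the filter and 0.022 with the stricter one. Aif1 had -0.36 with a run by Gne term and -0.17 with the Y-linked covariate. When 1 library was left out, the lowest and highest values were -0.83 and 0.26 for C3, -3.12 and 0.024 for Siglecf, -0.34 and 0.56 for Siglech and -0.64 and 2.16 for H2-Aa. For microglia genes they were -0.024 and 0.44 for Csf1r, -0.58 and 0.025 for C1qa, -0.81 and 0.22 for Cd68, -0.29 and 0.21 for Cx3cr1, -0.22 and 0.44 for Tmem119 and -0.53 and 0.86 for Aif1. Those of Prkca were -0.13 and 0.051. Intervals were widest for genes under 10 CPM, and the shares of depth and of spread between mice in that width were not separated. The p-values set each difference against the spread between these mice left after group and run. Sex and lens RNA were not separated from that spread in the main fit.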

Other observations

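Lists outside the main account had these differences of the 2 Gne effects, where 8566 of all 17409 tested genes were positive. Rod genes had 11 positive and 8 negative members of 19 tested (median 0.052), amacrine genes 7 and 7 of 14 (0.00034) and ganglion cell genes 7 and 9 of 16 (-0.022). Cone genes had 9 positive and 3 negative members of 12 (median 0.14, with 0.011 in run 1 and 0.14 in run 2). Nuclear oxidative phosphorylation genes had 17 positive and 10 negative members of 27 (median 0.14, with 0.058 in run 1 and 0.21 in run 2). Of the positive ones, 2 stood at an unadjusted p under 0.05, against 1.59% of all tested genes in that direction. Glycolysis genes had 12 positive and 5 negative members of 17 (median 0.15, with 0.14 in run 1 and 0.0061 in run 2). Here 1 negative gene stood at an unadjusted p under 0.05, against 1.60% of all tested genes in that direction. No member of these lists passed the adjusted test. Among the 30 genes called once the low-count filter was dropped, 23 had also been tested with the filter, where none passed. They hold the lens crystallins Crybb2, Cryba2, Cryba4 and Crygs, with values of -2.36, -2.59, -3.97 and -1.73, the small heat shock protein Cryab (-1.97), which lens and glia express, and 4 Y-linked genes. Junb (-2.84, adjusted p = 0.0167 in edgeR without the filter), Egr1 (-1.17, adjusted p = 0.00514), Zswim1 (6.03) and Sirt4 (-2.998) are also among them.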
